A study of Mus musculus with 4 samples.

Results

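Among epithelial barcodes of KP lung tumours, those described here held at least 5 UMIs (unique molecular identifiers, each standing for 1 captured RNA molecule) of Bex2 and Dlk1 together. They were chosen by measured values. No mark of recombined tumour cells was part of the rule, so members may include epithelial cells that are not tumour cells. An epithelial barcode had at least 1000 UMIs, 500 genes and no more than 20% mitochondrial UMIs, no Ptprc UMI, and 2 or more UMIs summed over Epcam, Krt8, Krt18 and Cdh1. A member also had under 5 UMIs of Gkn2, under 3 of Ctse and under 5 of Npy and Qrfp together, genes of other tumour cell groups. The rule found 43 of 749 epithelial barcodes in KP pre-depletion (5.74%, 95% exact Clopper-Pearson interval 4.19 to 7.66) and 172 of 3434 in KP post-depletion (5.01%, 4.30 to 5.79). These 215 members of 4183 KP epithelial barcodes come from a series of 23576 barcodes, of which 13493 passed the limits on UMIs, genes and mitochondrial share. All intervals cover counting error only.

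All 4 groups were lung adenocarcinomas of mixed 129/B6 mice carrying KrasFSF-G12D, p53frt and Rosa-FSF-CreERT2, initiated with Ad5-mSPC-FlpO, an adenovirus with Flp recombinase under a mouse surfactant protein C promoter. KPF1F2 mice carried Foxa1flox and Foxa2flox, and KP mice, labelled Foxa1flox/+ and Foxa2flox/+, so KP tumours too had 1 floxed copy of each gene. Every mouse received tamoxifen at 120 mg/kg in 4 daily injections at week 10, and tumours were collected at week 12. Cells were loaded before depletion, or after magnetic removal of CD45-positive leukocytes and CD31-positive endothelium. Each group has 1 library, so no test was possible, no p-value is given, and the labels do not say whether both KP libraries came from the same mice.

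Bex2 belongs to a family of small X-linked adaptor proteins that are abundant in brain and in some progenitor cells. Dlk1 encodes a transmembrane protein with EGF-like repeats that resembles Notch ligands and acts on Notch signalling. It is expressed from the paternal chromosome at an imprinted locus shared with the non-coding RNA Meg3, mainly in fetal tissue. In mouse lung, Dlk1 has been described in alveolar type 2 cells, which make surfactant, during repair.

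The regions around the starts of Bex2, Dlk1 and Cd177 are shown because Bex2 and Dlk1 define the members and Cd177 was among the genes that followed Dlk1 most sharply. Each window runs from 250 bases before to 50 bases after the RefSeq start in GRCm38.p6, on the strand of the gene. The windows are chrX:136068187-136068486 (minus strand) for Bex2, chr12:109452573-109452872 (plus strand) for Dlk1 and chr7:24760262-24760561 (minus strand) for Cd177. Capitals mark TGTTTAC, a forkhead motif, which was searched on both strands. By GENCODE M21 on GRCm38, the genes themselves lie at chrX:136066564-136068236 (Bex2), chr12:109452823-109463336 (Dlk1) and chr7:24743983-24760311 (Cd177), and the other markers at chrX:136138996-136140443 (Bex4), chr6:34920163-34939344 (Stra8) and chr9:37544492-37552904 (Nrgn).
Bex2: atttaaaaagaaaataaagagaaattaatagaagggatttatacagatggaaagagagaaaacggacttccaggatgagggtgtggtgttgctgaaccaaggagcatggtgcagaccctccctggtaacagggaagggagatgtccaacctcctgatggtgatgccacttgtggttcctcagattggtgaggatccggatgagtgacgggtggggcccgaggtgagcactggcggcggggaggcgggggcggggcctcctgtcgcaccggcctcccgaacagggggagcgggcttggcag
Dlk1: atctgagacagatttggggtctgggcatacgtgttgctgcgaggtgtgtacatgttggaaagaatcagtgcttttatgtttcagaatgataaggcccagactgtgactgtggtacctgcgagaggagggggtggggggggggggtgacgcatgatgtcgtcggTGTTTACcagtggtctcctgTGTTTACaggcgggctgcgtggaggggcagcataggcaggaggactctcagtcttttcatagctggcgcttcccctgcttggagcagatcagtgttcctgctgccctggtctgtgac
Cd177: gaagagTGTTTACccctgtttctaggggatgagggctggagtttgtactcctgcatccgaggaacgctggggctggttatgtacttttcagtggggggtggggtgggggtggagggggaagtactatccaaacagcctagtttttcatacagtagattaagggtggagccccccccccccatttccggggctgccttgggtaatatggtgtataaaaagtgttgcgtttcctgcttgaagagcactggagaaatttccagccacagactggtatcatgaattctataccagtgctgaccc
The Dlk1 window held the motif at 2 places, starting 87 and 67 bases before the gene start, and the Cd177 window at 1 place, 244 bases before it. The Bex2, Bex4, Nrgn and Stra8 windows held none. Neither did the windows at 2 starts of Spp1, another gene higher in the Dlk1 class. Whether the motif follows the classes cannot be read from so few windows. Of 32851 RefSeq windows of this length, 3.65% held TGTTTAC. The letters CACTTGA, an Nkx2-1 motif, were in 3.06% of them and in none of the windows named here, so no window here held both. A match is a run of letters, not evidence of binding.

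The KP libraries held 63010016 UMIs pre-depletion and 58986043 post-depletion. Members were deeper than other epithelial barcodes, and a fixed UMI minimum takes deep barcodes more readily. Their median was 31744 UMIs pre-depletion and 18289.5 post-depletion, against 14393.5 and 9733 in all other KP epithelial barcodes, here called the rest. The CRE-ERT2 transcript, a tag of recombined tumour cells, was seen in 53.5% and 37.2% of members and in 33.0% and 28.4% of the rest at these depths. Thinned to 5000 UMIs, the shares were 10.0% and 16.4% in members and 11.7% and 14.1% in the rest, and its level was 29.96 and 28.98 CPM in members and 36.1 and 34.8 CPM in the rest. The libraries shared 16 barcodes, 3 of them past the limits and 0 of them members. Barcodes with 2 or more Ptprc UMIs, a leukocyte marker, numbered 2277 pre-depletion and 3 post-depletion. Of the 2277, 2.68% had a Bex2 UMI and 1.41% a Dlk1 UMI.

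Most members held 5 or more UMIs of 1 of the 2 genes and not of the other, as the 5-UMI limits and the low share of each gene allow. In KP pre-depletion, 27 members had 5 or more Bex2 UMIs with fewer than 5 of Dlk1 (the Bex2 class), 14 had the reverse (the Dlk1 class) and 2 had 5 or more of each. In KP post-depletion these were 103, 61 and 4, and another 4 reached 5 UMIs only by the sum. No Bex2-class barcode had a Dlk1 UMI pre-depletion, and 7 of 103 had 1 to 3 UMIs post-depletion. Of Dlk1-class barcodes, 4 of 14 and 23 of 61 had a Bex2 UMI, with at most 3 and 4 UMIs, against 20.7% and 21.1% of the rest at its lower depth. Over all KP epithelial barcodes, 5 or more Bex2 UMIs were found in 7.21% and 5.47%, and in 16.7% and 10.2% of those with 5 or more Dlk1 UMIs (4 of 24 and 9 of 88). The genes were thus not seen together less often than over all barcodes. Dlk1 was high where it was present, up to 260 UMIs in a barcode pre-depletion and 132 post-depletion, whereas Bex2 reached 44 and 41.

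**Figure D1:**
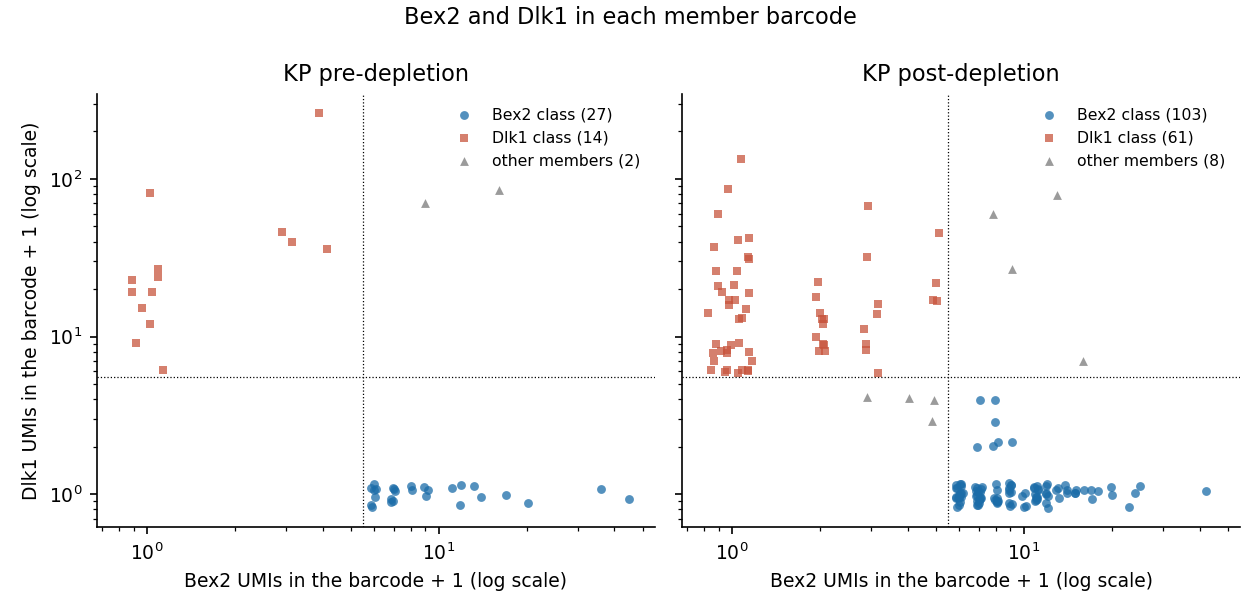
Bex2 UMIs (horizontal) and Dlk1 UMIs (vertical) of each member barcode, plus 1, on log scales with small random shifts, in both KP libraries; dotted lines mark 5 UMIs. Most points lie near an axis, as the rule on the sum allows, and 2 pre-depletion and 4 post-depletion barcodes had 5 or more UMIs of both genes.

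Members just inside the threshold, with 5 or 6 UMIs, numbered 14 pre-depletion and 48 post-depletion. Barcodes just outside it, with 3 or 4 UMIs and the same limits on the other genes, numbered 23 and 101. Nrgn stood at 41.5 and 79.0 CPM (UMIs per 1000000 UMIs, summed over the barcodes of a group) just inside, and at 6.84 and 89.3 CPM just outside. Bex4 stood at 176 and 348 CPM just inside and at 358 and 280 CPM just outside. The order of inside and outside thus differed between the libraries for both genes.

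Members were set against the rest gene by gene, as a description, because the members were picked from these same libraries. A gene is called here when its summed CPM, with 1 added, differed 2-fold or more in the same direction in both libraries, and 5399 genes with a mean of at least 20 CPM were compared. Only 15 genes (0.278% of those compared) were higher in members and 183 (3.39%) were lower. Scaling by TMM factors gave 37 higher and 142 lower, and DESeq2 size factors 39 and 138. The median log2 fold over all compared genes was -0.16 pre-depletion and -0.20 post-depletion, and -0.00 and 0.01 with TMM factors. Besides Bex2 and Dlk1, the higher genes were Bex4, Bex1, Nrgn, Cd177, Lcn2, Orm1, Trf, Kng2, Chil1, Inhbb, Cd164l2, Ogfrl1 and Cd302. Set against a rest of like depth, members had 14 higher and 169 lower genes. Keeping only barcodes with a CRE-ERT2 UMI, which left 23 and 64 members, gave 74 higher genes.

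Of the other marker genes of the label, Bex4, an X-linked relative of Bex2, stood at 251 and 375 CPM in members against 115 and 106 CPM in the rest, a log2 fold of 1.11 (95% exact conditional interval of the count ratio 0.97 to 1.27) and 1.81 (1.73 to 1.91). Bex1 of the same family stood at 32.3 and 49.2 CPM in members and 13.9 and 22.2 CPM in the rest. Of the 12 genes in the Bex and Tceal list, 5 were compared, all 5 lay above 0 in both libraries, and 2 were called, Bex4 and Bex1, against 20.9% of all genes above 0 in both libraries and 0.278% called higher. The median log2 fold of those 5 was 0.46 pre-depletion and 0.64 post-depletion. Stretches of 91 bases shared with other genes make up 9.51% of the last 500 bases of the longest Bex4 transcript and 4.39% of those of Bex2 and Bex1. A few reads of this family could thus match more than 1 gene. Bex4 shared such stretches with Bex1, Gm12245 and Gm4322, and not with Bex2. The longest stretch common to Bex2 and Bex4 was 15 bases.

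Nrgn encodes neurogranin, a small neuronal protein that binds calmodulin. It stood at 64.5 and 89.4 CPM in members, against 28.6 and 39.4 CPM in the rest. The pre-depletion value rests on 1 barcode, which held 60 of the 112 UMIs, and the log2 fold of 1.15 became -0.14 when members needed 10 UMIs. Stra8, a retinoic acid-induced gene required for meiosis in germ cells, stood at 31.1 and 76.8 CPM in members, against 22.7 and 29.2 CPM in the rest. It passed 2-fold only post-depletion (log2 fold 0.44 and 1.36). The file's other calmodulin and retinoic acid genes did not follow these markers. Of 7 calmodulin-list genes compared, only Nrgn was called higher, and the list median was -0.15 and -0.54. Of 7 retinoic acid-list genes compared, 2 were lower, with a list median of -0.89 and -0.99. Aldh1a3, which makes retinoic acid, stood at 5.18 and 1.64 CPM in members against 68.7 and 122 CPM in the rest. The retinoic acid list summed to 415 and 636 CPM in members and 805 and 1274 CPM in the rest. In a rest without the Gkn2, Ctse, Npy, Qrfp and high Bex2 or Dlk1 barcodes it summed to 396 and 693 CPM. Against that rest the list sum was lower in members post-depletion only.

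Several of the higher genes encode secreted or acute-phase proteins. Lcn2, a lipocalin that binds bacterial siderophores, stood at 6941 and 4370 CPM in members and 2098 and 1623 CPM in the rest (log2 fold 1.73 and 1.43). Chil1, a chitinase-like protein of alveolar type 2 cells, stood at 3193 and 1884 CPM in members and 1105 and 803 CPM in the rest. Trf, transferrin, stood at 1481 and 1058 CPM in members and 422 and 401 CPM in the rest. All of these had the larger level in the Dlk1 class, as described further on. Orm1, an acute-phase glycoprotein, stood at 184 and 150 CPM in members and 53.2 and 55.5 CPM in the rest. Kng2, a kininogen, stood at 296 and 231 CPM in members and 89.0 and 88.8 CPM in the rest. Inhbb, an activin subunit, stood at 68.0 and 93.8 CPM in members and 33.3 and 38.7 CPM in the rest. Trf stood at 814 CPM in the pre-depletion Ptprc barcodes too, between members and rest.

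Members carried high levels of alveolar type 2 genes. Sftpc, surfactant protein C, stood at 179424 and 187748 CPM in members against 100651 and 72647 CPM in the rest. Of 18 alveolar type 2 genes compared, 17 lay above 0 in both libraries and 1 was called, with a list median of 0.53 and 0.80 against -0.16 and -0.20 over all genes. S100g was the exception (-0.13 and -0.14). All 6 MHC class II genes compared lay above 0, with a median of 0.87 and 1.07, none of them 2-fold in both. Cd74, the invariant chain, stood at 5779 and 4708 CPM in members and 3110 and 2248 CPM in the rest. These genes are also made by leukocytes, whose part in the result was not tested. The summed 10-gene leukocyte list, kept low in part by the limit on Ptprc, was 42.1 and 4.65 CPM in members, against 120 and 9.25 CPM in the rest and 8829 CPM in Ptprc barcodes. The macrophage and monocyte list summed to 758 and 141 CPM in members and 1034 and 442 CPM in the rest, with 939 of 1316 pre-depletion member UMIs in 1 barcode. Nkx2-1, the lineage factor of these tumours, stood at 188 and 180 CPM in members and 196 and 151 CPM in the rest.

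The lower genes included those of other tumour states and of other lung cells. Of 18 genes of the transitional alveolar state compared, 14 were lower, against 3.39% of all genes compared, and 17 lay below 0 in both libraries, against 58.9% of all genes, with a median log2 fold of -1.68 and -2.03. Krt8, a simple keratin of that state, stood at 577 and 642 CPM in members and 1848 and 2708 CPM in the rest. Tm4sf1, a tetraspanin-like membrane protein, stood at 42.1 and 122 CPM in members and 330 and 555 CPM in the rest. Both genes were thus more than 2-fold lower in members in each library. Hmga2, a chromatin protein of embryonic and high-grade tumour cells, had no UMI in pre-depletion members, at least 19.9-fold lower than the 34.5 CPM of the rest by a floor of 3 counts. Post-depletion it stood at 0.82 CPM in members and 76.3 CPM in the rest. Prrx2, a mesenchymal homeobox factor, stood at 1.73 and 8.20 CPM in members and 38.1 and 85.0 CPM in the rest. Of 6 mesenchymal genes compared, 5 were lower, and of 16 alveolar type 1 genes, 4 were lower and 2 lay above 0 in both libraries. The gastric and intestinal list had 4 of 7 lower, but it includes Gkn2 and Ctse, which the rule kept low.

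The rest holds the Gkn2, Ctse, Npy and Qrfp barcodes that the rule kept out of the members, and some barcodes of other lung cells. Scgb1a1, the secretoglobin of club cells, stood at 46.7 and 157 CPM in members and 2172 and 7551 CPM in the rest. Without the Gkn2, Ctse, Npy, Qrfp and high Bex2 or Dlk1 barcodes, the rest numbered 542 and 2295 barcodes, and 12 genes were higher and 84 lower. In that reduced rest Krt8 stood at 842 and 1299 CPM and Hmga2 at 9.43 and 21.2 CPM. The transitional list summed to 3858 and 3877 CPM in members, 6015 and 8457 CPM in the reduced rest, and 11461 and 15743 CPM in the full rest. The alveolar type 2 list summed to 243010 and 232385 CPM in members, 191080 and 151458 CPM in the reduced rest, and 139196 and 97046 CPM in the full rest. For MHC class II these sums were 8808 and 6848, 6783 and 5168, and 4761 and 3269 CPM. The excess of members in both lists was thus smaller against the reduced rest. For Ckb, brain creatine kinase, the pre-depletion log2 fold was -1.22 against the full rest and 0.50 against the reduced rest.

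**Figure D2:**
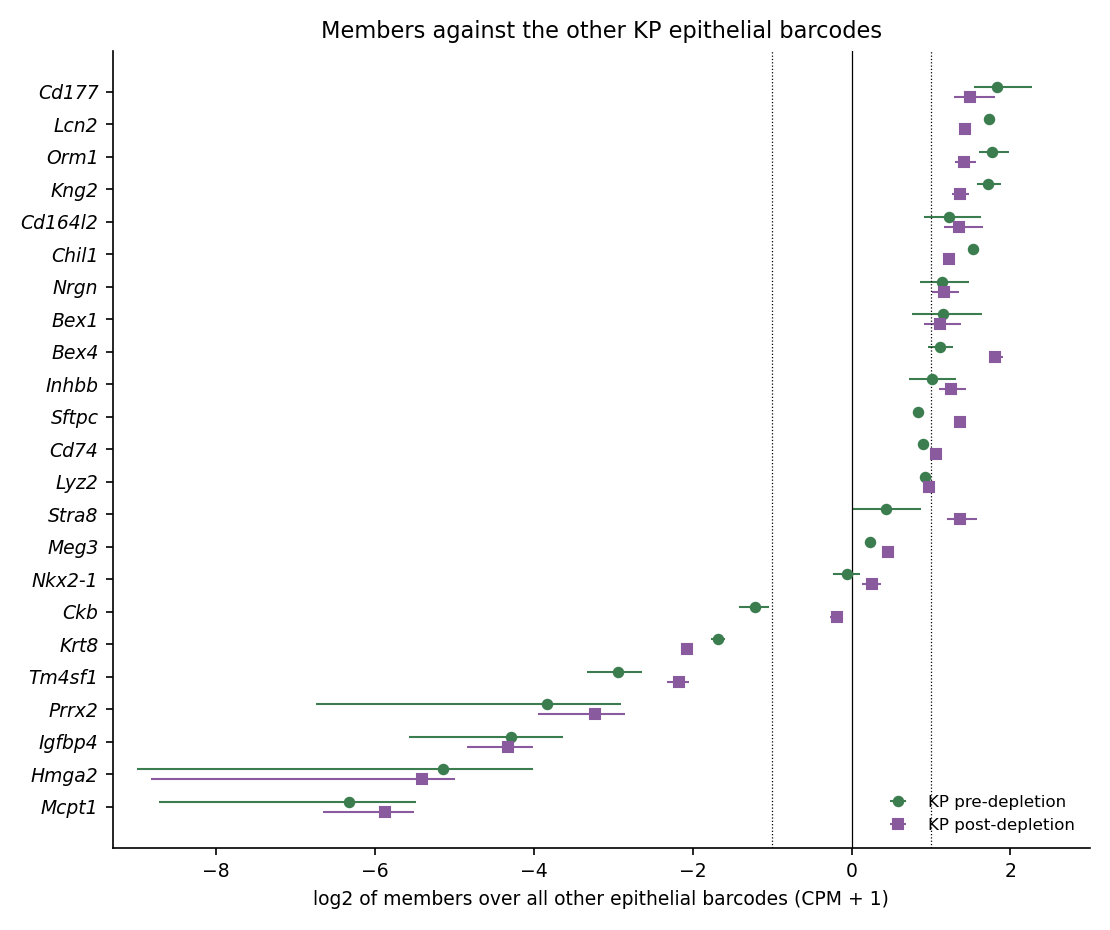
Log2 fold of members over all other KP epithelial barcodes (CPM plus 1) for named genes, with circles for pre-depletion and squares for post-depletion; bars are 95% exact intervals of the count ratio, cut at the left edge where no UMI was seen, and dotted lines mark 2-fold. The genes from Cd177 to Inhbb lie at or beyond the 2-fold line in both libraries, Sftpc, Cd74 and Lyz2 lie near it, and Krt8 to Mcpt1 lie far to the left.

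The 2 classes of members were then set against each other. Of 5098 genes compared, 27 (0.53%) were 2-fold or more higher in the Bex2 class than in the Dlk1 class in both libraries and 71 (1.39%) were lower, with 12 more past 2-fold in opposite directions. Bex2 and Dlk1, which split the classes, are counted among them. The median log2 fold over all compared genes was -0.16 pre-depletion and -0.06 post-depletion. The naming rule for this contrast was chosen after the data had been seen.

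Of the markers of the label, Nrgn and Stra8 went with the Bex2 class. Nrgn stood at 98.0 CPM (exact Poisson interval 80.5 to 118) and 124 CPM (111 to 139) in the Bex2 class, against 4.21 (0.51 to 15.2) and 14.1 (7.52 to 24.1) CPM in the Dlk1 class. Leaving out the barcode with the most Nrgn UMIs in each library gave 47.9 and 96.5 CPM in the Bex2 class, still a log2 fold of 3.23 and 2.69. Stra8 stood at 47.2 and 92.8 CPM in the Bex2 class, against 2.11 and 31.5 CPM in the Dlk1 class (log2 fold 3.96, interval 1.95 to 9.82, and 1.53, 1.00 to 2.17). Bex4 was in both, at 273 and 421 CPM in the Bex2 class and 173 and 250 CPM in the Dlk1 class, a log2 fold of 0.66 (0.31 to 1.03) and 0.75 (0.55 to 0.97). With 115 and 106 CPM in the rest, Bex4 lay above the rest in both classes, whereas Nrgn in the Dlk1 class lay below the 28.6 and 39.4 CPM of the rest.

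Shares of barcodes with a UMI depend on depth and were compared after thinning. Pre-depletion, thinned to 5000 UMIs, a Nrgn UMI was in 3 of 27 Bex2-class and 0 of 11 Dlk1-class barcodes, and at 2000 UMIs in 1 of 27 and 1 of 14, too few to order the classes. Post-depletion, with barcodes thinned to 5000 UMIs each, 24 of 103 Bex2-class barcodes had a Nrgn UMI (23.3%, 15.5 to 32.7), against 3 of 54 in the Dlk1 class (5.56%, 1.16 to 15.4). Unthinned, these were 49.5% and 11.5%, at median depths of 20556 and 12192 UMIs. In pre-depletion Ptprc barcodes, which should lack the gene, the thinned share was 0.774% of 1680 and the unthinned share 1.23%, at a median of 11997 UMIs. Cd177 ran the other way post-depletion, with 0 of 103 thinned Bex2-class barcodes, which allows up to 3.52%. The Dlk1 class had 11 of 54 (20.4%, 10.6 to 33.5), and pre-depletion Ptprc barcodes 1.49%. Pre-depletion, Cd177 was in 0 of 27 and 3 of 11 barcodes at 5000 UMIs. At 2000 UMIs it was in 0 of 27 and 1 of 14, again too few to order the classes. Unthinned, Cd177 was seen post-depletion in 2.91% of the Bex2 class and 34.4% of the Dlk1 class. Thinning left out 0 of 103 and 7 of 61 barcodes.

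Other genes higher in the Bex2 class included lipid, metabolic and matrix genes. Apob, the apolipoprotein of chylomicrons and very low-density lipoprotein, stood at 131 and 233 CPM in the Bex2 class. It had 0 UMIs in the Dlk1 class pre-depletion, at least 20.7-fold lower by a floor of 3 counts, and 15.2 CPM post-depletion. The rest stood at 84.2 and 171 CPM of Apob, so against the rest Apob was low in the Dlk1 class rather than high in the Bex2 class. Ckb stood at 202 and 486 CPM in the Bex2 class and 27.4 and 106 CPM in the Dlk1 class, and the rest had 324 and 414 CPM. Neither Apob nor Ckb was thus higher in the Bex2 class than in the rest by 2-fold. Slc1a3, a glutamate transporter, stood at 40.1 and 46.2 CPM in the Bex2 class and 4.21 and 13.0 CPM in the Dlk1 class. Dcn, the proteoglycan decorin, stood at 158 and 193 CPM in the Bex2 class and 52.6 and 36.9 CPM in the Dlk1 class. Apoe, named after its values were seen, stood at 2107 and 3362 CPM in the Bex2 class and 225 and 1442 CPM in the Dlk1 class. The rest had 1492 and 1965 CPM of Apoe. Pre-depletion Ptprc barcodes had 3450 CPM, above both classes, and the part of leukocyte RNA in this difference was not tested. Lyz1, a second lysozyme gene, passed the rule too, but 1 barcode held 98.0% of its pre-depletion Bex2-class UMIs.

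Among the genes lower in the Bex2 class than in the Dlk1 class were several known from neutrophils and from secretory and acute-phase responses. Cd177, a surface glycoprotein of neutrophils, had 0 UMIs pre-depletion and 1.59 CPM (0.434 to 4.08) post-depletion in the Bex2 class, against 187 CPM (exact Poisson interval 150 to 231) and 162 CPM (137 to 190) in the Dlk1 class. The pre-depletion level of the Bex2 class was at least 70.1-fold lower by a floor of 3 counts. One barcode held 62.9% of the pre-depletion Dlk1-class UMIs, and without it 78.2 CPM remained. Pre-depletion Ptprc barcodes held 16.9 CPM of Cd177, below the Dlk1 class. The 7-gene neutrophil list, in which 5 genes had no UMI in members of either library, summed to 0.891 and 1.99 CPM in the Bex2 class and 40.0 and 33.7 CPM in the Dlk1 class, against 959 CPM in pre-depletion Ptprc barcodes. The leukocyte list summed to 44.5 and 5.57 CPM in the Bex2 class and 42.1 and 3.26 CPM in the Dlk1 class. Lcn2 stood at 4339 and 2411 CPM in the Bex2 class and 12103 and 9487 CPM in the Dlk1 class. Chil1 stood at 1789 and 1016 CPM in the Bex2 class and 6599 and 4310 CPM in the Dlk1 class. Trf, named after its values were seen, stood at 488 and 333 CPM in the Bex2 class and 3095 and 2946 CPM in the Dlk1 class, the rest lying at 422 and 401 CPM. All 3 genes were thus more than 2-fold lower in the Bex2 class in both libraries.

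Pglyrp1, a peptidoglycan-binding antibacterial protein, stood at 131 and 154 CPM in the Bex2 class and 1240 and 672 CPM in the Dlk1 class. Col15a1, a basement membrane collagen, stood at 8.91 and 22.7 CPM in the Bex2 class and 251 and 114 CPM in the Dlk1 class. Fxyd4, a regulator of the sodium pump, stood at 24.9 and 17.9 CPM in the Bex2 class and 168 and 162 CPM in the Dlk1 class. In all of these the Dlk1 class was above the Bex2 class in both libraries. Spp1, osteopontin, stood at 8.91 and 36.2 CPM in the Bex2 class and 1754 and 907 CPM in the Dlk1 class, but 1 barcode held 87.6% of the pre-depletion Dlk1-class UMIs. The rest had 1752 and 3649 CPM of Spp1, so the Dlk1 class did not stand above it by 2-fold. Without the barcode with the most UMIs of each gene, all genes named for this contrast kept a 2-fold difference in both libraries except Fbln5, an elastic fibre protein, and Muc5b, a mucin, both of which lost it pre-depletion (log2 fold 0.56 and -0.60).

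**Figure D3:**
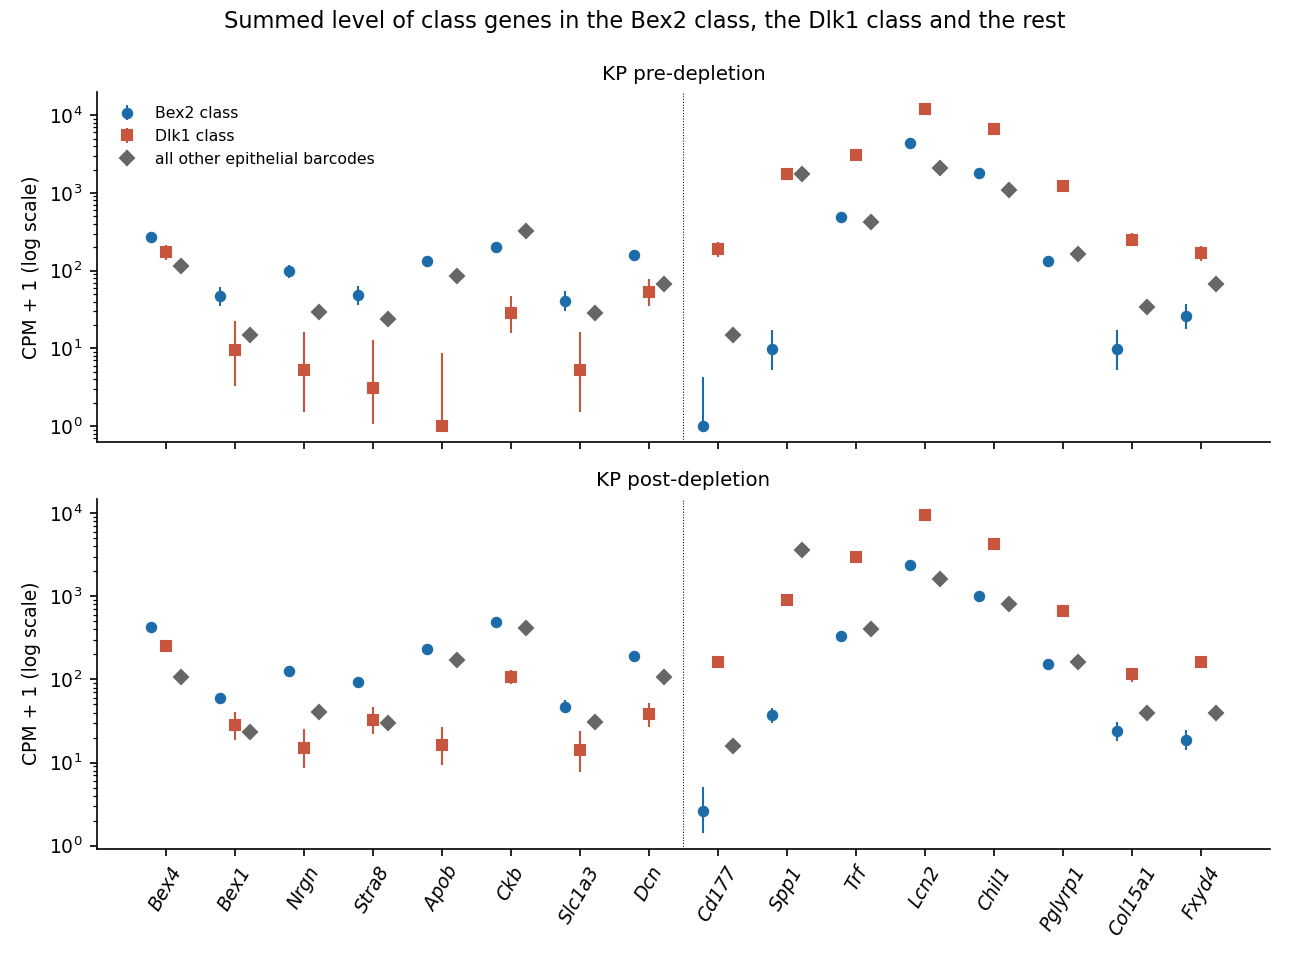
Summed level (CPM plus 1, log scale) of 16 genes in the Bex2 class (circles), the Dlk1 class (squares) and all other epithelial barcodes (diamonds), pre-depletion above and post-depletion below; bars are 95% exact Poisson intervals. Left of the dotted line the circle lies above the square for every gene, and right of it the square lies above the circle.

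The genes of the Dlk1 locus and of Notch signalling were looked at by list. Meg3, transcribed from the other parental copy of the Dlk1 locus, had summed levels of 1325 and 1603 CPM in the Bex2 class and 1609 and 2743 CPM in the Dlk1 class, neither difference 2-fold. The rest stood at 1168 and 1592 CPM. The median over single barcodes differed more. It was 318 and 1328 CPM in the Bex2 class, 2206 and 2242 CPM in the Dlk1 class, and 79.9 and 667 CPM in the shallower rest. By that median the Dlk1 class passed 2-fold over the Bex2 class pre-depletion, and over the rest in both libraries. Peg3, a paternally expressed imprinted zinc finger gene elsewhere in the genome, stood at 24.0 and 30.7 CPM in the Bex2 class and had 0 UMIs in the Dlk1 class of either library, at least 3.81-fold and 9.41-fold lower by a floor of 3 counts. Peg3 averaged under 20 CPM over these sums, so it was not among the genes compared. Of 5 other imprinted genes compared between members and rest, 0 were called. Between the classes, 1 of 3 compared was called, higher in the Bex2 class. Of 3 Notch receptor and modulator genes and 2 Notch target genes compared, 0 were called in members over rest and 0 between the classes. At the shares called over all genes, a count of 0 among so few genes, the 5 imprinted genes included, says nothing about them. Hes1, the target best known from Notch, stood at 65.9 and 66.1 CPM in the Bex2 class and 94.8 and 97.7 CPM in the Dlk1 class. Jag1, a Notch ligand, stood at 16.7 and 20.5 CPM in members and 32.5 and 60.2 CPM in the rest.

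Of 18 alveolar type 2 genes compared between them, 1 was called, Chil1, and of 7 MHC class II genes 0, against 0.53% higher and 1.39% lower over all genes. Sftpc stood at 203037 and 202544 CPM in the Bex2 class and 110291 and 149279 CPM in the Dlk1 class. Mki67, a proliferation marker, stood at 0.891 and 31.1 CPM in the Bex2 class and 54.7 and 5.43 CPM in the Dlk1 class, so its order differed between the libraries. A single Dlk1-class barcode held 233 of the 305 mitosis-list UMIs of pre-depletion members. The share of barcodes with a Mki67 or Top2a UMI was 14.0% and 7.56% in members and 7.79% and 7.17% in the rest.

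A pair of pre-depletion members stood apart by their genes. In KP pre-depletion, 1 Bex2-class barcode held 245 of the 272 UMIs of the neuroendocrine list, with 89 of Calca, the calcitonin gene of pulmonary neuroendocrine cells, 12 of Bex2 and 12 of Sftpc among 10540 UMIs. The barcode was noticed after the values were seen. Another Bex2-class barcode, with 5 Bex2 UMIs among 47238, held the 939 macrophage and monocyte list UMIs given above, the next highest member having 38. The highest post-depletion member had 9 of 94 neuroendocrine list UMIs. Without the neuroendocrine barcode 42 members remained pre-depletion, 16 genes were higher and 185 lower against the rest, and 27 and 73 between the classes.

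The rule left out 31 barcodes pre-depletion and 101 post-depletion that had 5 or more Bex2 and Dlk1 UMIs but passed a limit on the other genes, 27 and 92 of them for Gkn2. The split of the classes was read in these barcodes, which were not members though they come from the same libraries. They were deep, with medians of 58016 and 33465 UMIs. There were 23 and 76 of them with 5 or more Bex2 UMIs alone and 6 and 18 with 5 or more Dlk1 UMIs alone. Of 26 genes higher in the Bex2 class, 23 lay on the same side in both libraries and 14 by 2-fold, and of 70 genes higher in the Dlk1 class, 46 and 19. Of all 5091 genes, 1193 lay above 0 in both libraries and 64 were 2-fold higher, while 1475 lay below 0 and 64 were 2-fold lower. Nrgn stood at 86.9 and 87.1 CPM in the left-out Bex2 barcodes and at 4.08 and 5.23 CPM in the left-out Dlk1 barcodes. Cd177 stood at 6.01 and 3.76 CPM in the left-out Bex2 barcodes and at 228 and 195 CPM in the left-out Dlk1 barcodes. Stra8 parted them pre-depletion only (53.6 and 84.0 CPM with Bex2, 4.08 and 69.7 CPM with Dlk1). Trf and Apob also passed 2-fold pre-depletion only. Trf stood at 444 and 524 CPM with Bex2 and 3777 and 772 CPM with Dlk1. Apob stood at 178 and 239 CPM with Bex2 and 4.08 and 120 CPM with Dlk1. Col15a1 stood at 10.9 and 24.6 CPM with Bex2 and 257 and 15.7 CPM with Dlk1, so its order differed between the libraries.

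Expression outside the rule genes placed members near one another. With the rule genes left out of the principal components, 21.1% and 29.9% of the 15 nearest neighbours of a pre-depletion and a post-depletion member were members, who made up 5.14% of barcodes. Bex2-class barcodes had 13.3% and 23.9% Bex2-class neighbours against a share of 3.11%. Dlk1-class barcodes had 17.1% and 21.5% Dlk1-class neighbours against a share of 1.79%. Members thus lay among their own class more often than the shares, though most of their neighbours were other barcodes. The shares are of all KP epithelial barcodes, among them the Gkn2, Ctse, Npy and Qrfp barcodes that could not be members. Part of the excess over the shares is therefore fixed by the rule. Neighbours were also deeper than the rest, with a median of 17091 UMIs around pre-depletion members and 11466 around the pre-depletion rest.

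Clustering divided the KP epithelial barcodes into clusters called here by number. Leading genes of a cluster were ranked over all genes, among them the rule genes left out of the clustering. Cluster 4, led by Retnla, Dlk1, Cd177, Lcn2, Cox6a2 and Chil1, held 24.6% of the Bex2 class, 82.7% of the Dlk1 class and 9.20% of the rest. Cluster 3, led by Dcpp1, Bpifa1, Dlk1, Dcn, Stra8, Nrgn and Bex2, held 40.8% of the Bex2 class, 1.33% of the Dlk1 class and 8.06% of the rest. A further 13.8% of the Bex2 class was in cluster 0, led by Retnla, Lyz1, Cbr2 and Chia1. Members made up 21.7% of cluster 4 and 14.9% of cluster 3, so neither cluster was a set of members alone. Cluster 6, led by Mgp and Col3a1, cluster 7, led by Cldn6 and Ctse, cluster 9, with Dpcr1 and Sprr1a among its first genes, and cluster 12, led by Npy and Inhba, held 0 members. The limits of the rule on Ctse, Npy and Qrfp fix much of this for clusters 7 and 12.

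**Figure D4:**
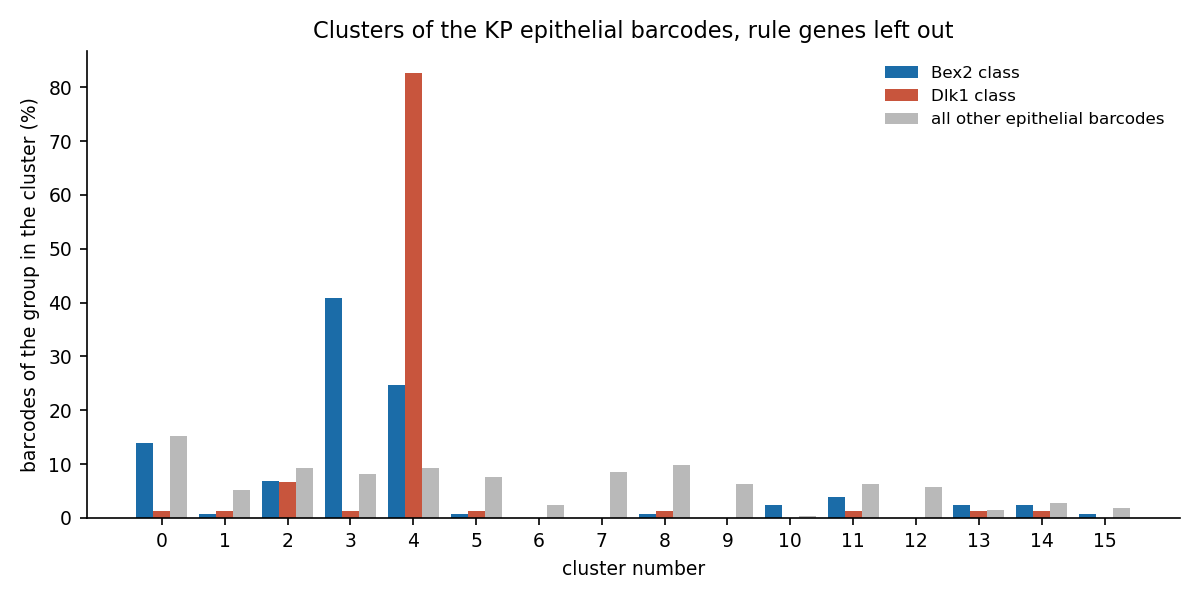
Share of the Bex2 class, the Dlk1 class and all other KP epithelial barcodes in each numbered cluster, in percent of that group, both libraries together. The Bex2 class peaks in cluster 3 with 40.8%, and the Dlk1 class in cluster 4 with 82.7%.

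The same rule found few barcodes in KPF1F2 tumours. It took 2 of 223 epithelial barcodes pre-depletion (0.897%, 0.109 to 3.20) and 9 of 2103 post-depletion (0.428%, 0.196 to 0.811) in KPF1F2, against 5.74% and 5.01% in KP. Each share rests on 1 library, so the spread between mice or libraries is unknown and the genotypes could not be tested against each other. A CRE-ERT2 UMI was seen in 0 of 2 and 1 of 9 KPF1F2 members, against 23.5% and 28.3% of the other KPF1F2 epithelial barcodes, and in 23 of 43 and 64 of 172 KP members. In the other epithelial barcodes, Bex2 stood at 1.76 and 0.927 CPM in KPF1F2 and 41.0 and 46.0 CPM in KP. Dlk1 there had 9 and 1 UMIs in KPF1F2, or 1.59 and 0.0197 CPM, against 38.3 and 23.5 CPM in KP. The KP rest still held 31 and 101 barcodes with 5 or more Bex2 and Dlk1 UMIs together, and the KPF1F2 rest 1 and 0. In the reduced rest, 139 of 639 and 705 of 2075 KP Bex2 UMIs remained, and 26 of 596 and 133 of 1060 KP Dlk1 UMIs. Most of these KP UMIs thus lay outside the reduced rest. The reduced rest of KPF1F2 held 10 and 46 Bex2 UMIs and 0 and 1 Dlk1 UMIs. The KPF1F2 members held 10 and 179 Bex2 UMIs and 49 and 279 Dlk1 UMIs, and 1 UMI of Nrgn in each library. Sftpc stood at 110458 and 167385 CPM in these KPF1F2 members and 179424 and 187748 CPM in KP members.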

How the data were processed

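Single-cell 3′ RNA libraries (10x version 3.1, per the labels' protocols) were read from the UMI count matrices that the authors deposited. The file headers name Cell Ranger 6.0.0, and mm10 is the build in the submitters' processing notes. The counts are raw UMIs per gene and barcode. Which annotation and strand setting were used is not stated in the labels or headers. The members and gene lists were chosen with earlier results of these data known.

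UMIs were summed per library over members, classes and the rest, and given as CPM. Folds are log2 with 1 CPM added, for genes averaging at least 20 CPM, and a gene is called at a log2 fold of 1 in both libraries. With 1 library per group no test was made. Intervals are 95% exact Poisson, Clopper-Pearson or conditional binomial, and a count of 0 was given a floor of 3 counts. The fold and interval functions were tested on simulated data.

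Named in any case were the label's markers, the rule's genes and genes of tumour state and lineage; further the first 15 genes each way by the smaller fold, leaving out rule genes, gene models, ribosomal and mitochondrial genes and genes higher in Ptprc barcodes; and up to 4 and 2 genes per list. That filter left out Trf, Ogfrl1 and Cd302. Some genes that the rule names are not reported here. Clusters came from 2000 variable genes, 30 components and 15 neighbours (scanpy 1.11.5, igraph 0.11.9, Leiden). The doublet caller scrublet marked 4 and 1 barcodes at its own threshold, so no doublets were removed, and leaving out the highest scores is an alternative. Positions and promoters are from GRCm38. Alternatives used edgeR 4.0.16 and DESeq2 1.42.0 for scaling factors only.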

Additional observations from a re-analysis of the deposited data

How the results depend on the processing

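No paired analysis was possible because each group has 1 library, so no replicate could be left out either. The count of higher genes in members was 37 with TMM factors, 39 with DESeq2 size factors, 25 at a minimum of 5 CPM, 33 with no minimum, 74 with only CRE-ERT2 barcodes and 28 without Mki67 and Top2a UMIs, against 15. The count of lower genes was 404 at 5 CPM, 821 with no minimum and 84 with the reduced rest, against 183. Members numbered 23 and 80 at 10 UMIs, 66 and 273 at 3 UMIs, 387 post-depletion at 200 CPM, and 23 and 64 with a CRE-ERT2 UMI. Genes higher in the Bex2 class numbered 115 at 5 CPM and 321 with no minimum, and those higher in the Dlk1 class 174 and 315, and 123 with the mean of each barcode's CPM. Fewer members or more genes compared follow from the construction of these settings; for the others the cause was not tested.

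The other 101 counts and neighbour shares under alternatives, among them a rest of like depth and leaving out the highest doublet scores, kept within 1.5 times or the interval of the value reported. The class counts and their alternatives were added after seeing the data, as were the settings without the neuroendocrine barcode and without the deepest barcode of each class (29 and 72 class genes).

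Reversed folds pre-depletion were Nrgn at 10 UMIs (-0.14), at 200 CPM (-0.13) and with CRE-ERT2 barcodes (-0.35), Mgp at 3 UMIs (0.74), Ctse (0.31) and Ckb (0.50) with the reduced rest, and Scgb1a1 with CRE-ERT2 barcodes (0.00). With CRE-ERT2 barcodes, Cbr2 (0.51) and the club list (0.51) reversed post-depletion and the fibroblast list in both libraries (0.38 and 0.42). The endothelial list reversed post-depletion with no minimum (-0.39). For these the cause was not tested. Depth limits genes under about 20 CPM in the 14 pre-depletion Dlk1-class barcodes, where 1 barcode held 23.2% of UMIs.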
